A study of Mus musculus with 15 samples.

Results

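Batch 8995 of cultured mouse retinal pigment epithelium (mRPE) cells was compared with batch 9262 of the same cells by RNA sequencing. The libraries were chosen by name: those starting with 8995-SB form batch 8995 and those starting with 9262-SB form batch 9262, which takes 9 of the 15 samples of the series, 3 in batch 8995 and 6 in batch 9262. The study set loss of *Prom1* in mRPE cells beside wild-type cells, and its remaining 6 samples, RPE and choroid from mice, were not used here. The cells came from pooled C57BL/6J mice, were immortalised with a lentivirus carrying HPV E6 and E7, and grew in medium with serum, hydrocortisone, taurine and triiodothyronine. The lines labelled mRPE Prom1KO 22 and mRPE Prom1KO 26 (KO22 and KO26) received Cas9 by lentivirus with puromycin selection and then a synthetic guide RNA to *Prom1*. Puromycin had already been used to select the immortalised cells. The methods also name Cas9 cells given a scrambled guide, and whether the WT libraries came from such cells is not stated.

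The WT cells gave 1 library in batch 8995 and 3 in batch 9262, KO22 gave 1 and 2, and KO26 gave 1 and 1. WT is 1 line and the knockout 2. The study's text says that it left out both KO26 libraries as outliers, and they are kept here. Nothing in the labels says that the libraries of 1 group are separate cultures, so the spread between them may be technical. P-values of the fit with cell line and batch as terms rest on that spread and on how far the lines disagree on the batch. Those within a line, or for a batch difference that differs between lines, rest only on the spread within WT and within KO22 of batch 9262. The study's text reports clustering by sequencing batch before correction, and better clustering by genotype after it corrected for batch with limma. Reading the library names as those batches is an inference made here. Whether growth, RNA extraction, library preparation or sequencing differed between the batches is not stated, and these cannot be told apart here. The labels of these libraries name an NEB stranded mRNA kit, the study's methods, which speak of dissected RPE, name a TruSeq kit, and neither ties a kit to a batch. *Prom1* itself was not analysed here.

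As background, retinal pigment epithelium is a pigmented epithelial sheet that recycles visual retinoids and engulfs the shed tips of photoreceptors. In culture, and after immortalisation by viral oncogenes that disable p53 and RB, such cells can divide, spread and take on contractile, matrix-producing features. Type I interferon switches on a set of antiviral genes that share a short DNA element in their promoters.

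Genes of the interferon program, of antigen presentation by MHC class I and of several interferon-inducible gene families were lower in batch 8995 than in batch 9262 at the median in all 3 lines. Genes of the actin and smooth muscle cytoskeleton, of immediate-early signalling, of oxidative stress, of endoplasmic reticulum chaperones and of the early secretory pathway, the last gathered after the values were seen, were higher in batch 8995 at the median of their lists in all 3 lines. Those of the amino acid response were higher in WT and KO26 and near 0 in KO22. Ribosomal protein, respiratory chain and cholesterol synthesis genes were higher at the median in batch 8995 of WT and KO26, while in KO22 the ribosomal median was near 0 and the other medians were below 0. Cell cycle genes did not move with the batch in the same direction: the medians of DNA replication and mitosis were lower in batch 8995 of KO22 and higher in WT and KO26.

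The 11 RPE markers checked hold only 3 genes analysed here, and these were at 20.1 CPM or less in every library. *Rdh5*, a retinol dehydrogenase of the visual cycle, was at 1.21 to 3.62 CPM (counts scaled to library size by TMM) in batch 8995 and at 1.78 to 4.61 in batch 9262. The bestrophin channel gene *Best1* was at 17.4 CPM in the KO22 library of batch 8995 and at 1.76 to 4.40 in all other libraries. *Mitf*, the pigment cell transcription factor, was at 20.1 CPM in the same KO22 library, at 12.5 and 10.4 in KO22 of batch 9262, and at 1.62 to 6.77 in WT and KO26. *Pmel*, the melanosome fibril gene, was at 1.21 to 1.995 against 1.69 to 2.66 CPM, and was the only 1 of 4 melanin markers analysed here. *Rpe65*, *Rlbp1*, *Lrat*, *Rgr*, *Ttr*, *Otx2*, *Krt8* and *Krt18* were not analysed here, so the RPE label rests on the study's text and not on these markers. Of 6 fibroblast markers, 5 were analysed and 4 were far from 0: *Col1a1*, a collagen I chain, lay between 1148 and 7596 CPM, *Pdgfrb* between 112 and 394, and *Dcn*, the proteoglycan decorin, between 414 and 1498, with *Pdgfra* given below. The surface marker *Thy1* was low, at 0.173 to 18.6 against 1.06 to 9.904 CPM, and lowest in KO22. The cells are therefore called mRPE by their label only. In bulk RNA, fewer cells of a kind and less RNA per cell cannot be told apart.

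Depth and composition moved partly with the batch. Total counts were 27537863 in WT, 11863633 in KO22 and 24175274 in KO26 of batch 8995, and 13469818, 10187978 and 12614921 in WT, 20760399 and 13096157 in KO22, and 8076188 in KO26 of batch 9262. The 8995 library was the deepest of its line in WT and KO26 and the shallowest in KO22. Mitochondrially encoded genes held 21.6%, 14.5% and 17.4% of the counts in WT, KO22 and KO26 of batch 8995, against 18.6%, 21.6% and 17.6% in WT, 14.03% and 16.3% in KO22, and 12.9% in KO26 of batch 9262, so the batches overlapped in WT and KO22. Ribosomal protein genes held 2.81%, 2.23% and 3.53% in batch 8995 and 1.98%, 1.80% and 1.76% in WT, 2.11% and 2.43% in KO22, and 1.75% in KO26 of batch 9262. Long non-coding RNAs held 2.64%, 2.73% and 2.16% in batch 8995 and 3.34%, 2.96% and 3.46%, then 2.48% and 2.37%, then 3.17% in batch 9262, lower in batch 8995 of WT and KO26 but not of KO22. The TMM factors were 0.914, 0.975 and 0.892 in batch 8995 and 1.083, 0.9997 and 1.105, then 0.999 and 0.984, then 1.07 in batch 9262. The part of depth and composition in the gene results was not tested.

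With cell line and batch as terms, edgeR called 893 genes higher in batch 8995 (4.31% of 20737 tested) and 936 lower (4.51%) at adjusted p under 0.05. Positive log2 fold changes (log2FC) mean higher in batch 8995 throughout. Values of a gene are given below as the CPM of the 8995 library against those of the 9262 libraries of the same line, in the order of the replicates, or as the range over batch 8995 against that over batch 9262. A count of 0 among calls is followed, in parentheses, by the count at unadjusted p under 0.05 and that by DESeq2. Of the called genes, 860 higher and 924 lower had the same direction in all 3 lines, together 1784 of 1829 (97.5%), while over all tested genes 7351 (35.4%) had 1 direction in all 3 lines. Of all tested genes, 3190 (15.4%) were higher and 4161 (20.1%) lower in all 3 lines. These shares stand beside every count below of list members higher or lower in all 3 lines. The additive fit itself favours genes with like differences in the lines, so the share among called genes is a description only. The 8995 library lay above every 9262 library of its line in all 3 lines for 2182 genes (10.5%) and below in all 3 for 2746 (13.2%). Past a log2 fold change of 1.2 in size, 137 called genes were higher and 397 lower. The median over all tested genes was −0.03 (−0.02 within WT, −0.11 within KO22, 0.00 within KO26), and "median" below means the median log2 fold change of a list, followed by its within-line values from a fit of the 6 groups, its range over the 9 fits that each left 1 library out, and its value with total counts with the calls higher and lower it gave. Symbol families are given by their median alone.

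The balance of directions rested on the scaling. With total counts in place of TMM, edgeR called 530 genes higher and 2005 lower, so that 20.9% of the called genes were higher against 48.8% with TMM, and the median over all genes shifted by −0.17. DESeq2 size factors gave 973 and 988. Leaving out the WT library of batch 8995 left 191 genes higher and 359 lower, leaving out the KO22 library of batch 8995 gave 3791 and 3125, and leaving out its KO26 library gave 456 and 506. Without WT replicate 1, 2 or 3 of batch 9262 the counts were 475 and 364, 337 and 388, and 307 and 339. Without KO22 replicate 1 of batch 9262 they were 643 and 451, and without the KO26 library of batch 9262 they were 452 and 495. Of the genes called with all 9 libraries, 853 higher and 930 lower stayed called without the KO22 library of batch 8995, but 163 and 279 without the WT library.

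KO22 stood apart from the other lines, but its batch difference rests on 1 library of batch 8995, the shallowest of that line. A response of the line and a trait of that library cannot be told apart here. The line-by-batch interaction passed edgeR for 6824 genes (32.9%), of which 592 were also called by the additive fit. Across 9464 genes with at least 10 CPM, within-line batch differences correlated at 0.75 between WT and KO26, 0.17 between WT and KO22 and 0.01 between KO22 and KO26, a description without a test. Fitted within lines, edgeR called 3168 genes higher and 2502 lower in WT, 2122 and 3474 in KO22, and 3718 and 2752 in KO26. The KO26 groups and both other 8995 groups hold 1 library each and were assumed to vary like WT and KO22 of batch 9262. Replicates of batch 9262 differed by more than counting noise, with a chi-square per degree of freedom of 5.20 to 7.94 between WT libraries and 12.9 between the KO22 libraries.

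**Figure D1:**
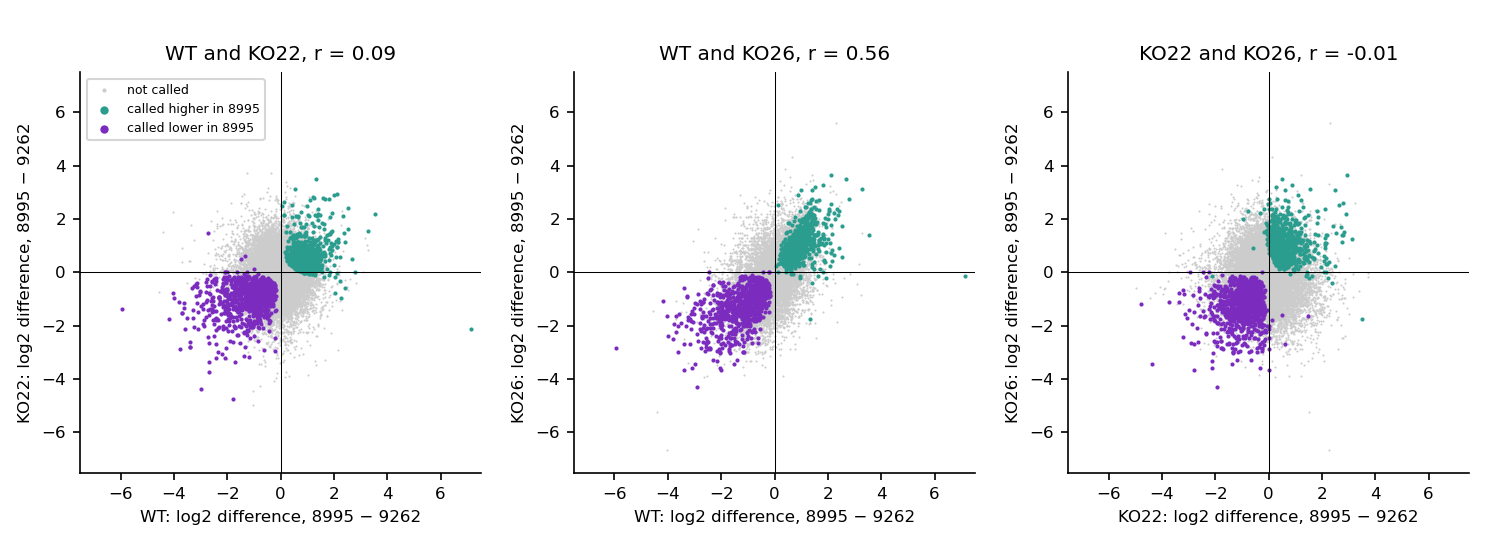
Batch difference of each tested gene in 1 line against another, for the 3 pairs of lines, with called genes coloured and the correlation over all tested genes above each panel. The points of WT and KO26 run along the diagonal, those of the pairs with KO22 do not, and nearly all called genes lie in the same-sign corners.

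Interferon-stimulated genes had the lowest median of all lists. In this list edgeR called 26 lower and 0 higher (1 and 1) of 34 tested, median −1.55 (WT −2.43, KO22 −0.83, KO26 −1.17, 1 library out −1.91 to −1.01, total counts −1.69 with 0 and 29), 30 of the 34 were lower in batch 8995 of all 3 lines, and 33 passed the interaction. The summed level of the list was 1167, 3682 and 3732 CPM in WT, KO22 and KO26 of batch 8995, against 4715, 5536 and 5531 in WT, 8704 and 5855 in KO22, and 8599 in KO26 of batch 9262. Each 8995 library was below all 9262 libraries of its line, and WT of batch 8995 was the lowest of all. *Oas2*, an enzyme that senses double-stranded RNA, was at 19.03 CPM against 201, 211 and 276 in WT, at 30.6 against 171 and 102 in KO22, and at 108 against 320.4 in KO26. The batches did not overlap within any line (edgeR log2FC −2.49, SE 0.36, adjusted p = 0.00499), though the gene overlaps a neighbour on chromosome 5 with which reads may be shared. *Gbp10*, a guanylate-binding GTPase that attacks intracellular pathogens, was at 1.03 CPM against 15.1, 16.5 and 16.8 in WT, at 0.778 against 2.46 and 1.32 in KO22, and at 8.63 against 49.5 in KO26, again without overlap (edgeR log2FC −2.88, SE 0.41, adjusted p = 0.00451). *Gbp3*, of the same family, was at 44.4 CPM against 222, 278 and 235 in WT, at 98.7 against 422 and 254 in KO22, and at 125 against 351 in KO26, lower in every line (edgeR log2FC −1.95, SE 0.23, adjusted p = 0.00223).

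*Irf7*, the transcription factor that amplifies the interferon response, was at 5.44 CPM against 23.6, 30.04 and 35.7 in WT, at 15.3 against 83.4 and 55.6 in KO22, and at 32.8 against 71.9 in KO26. It was lower in batch 8995 of each line (edgeR log2FC −1.98, SE 0.26, adjusted p = 0.00374), by the most in WT and the least in KO26. *Oasl2*, an OAS-like antiviral gene, was at 65.2 CPM against 475, 522 and 543 in WT, at 252 against 743 and 488 in KO22, and at 335 against 746 in KO26, separated in every line (edgeR log2FC −1.82, SE 0.33, adjusted p = 0.0111). The antiviral GTPase gene *Mx1* was at 0.238 CPM against 17.6, 24.4 and 26.8 in WT, at 19.5 against 62.7 and 41.1 in KO22, and at 12.2 against 87.1 in KO26. Its WT difference was the largest, with 1 library near 0, and edgeR gave log2FC −2.81, SE 0.62, adjusted p = 0.0237, with an interaction adjusted p = 2.20e-06. *Irf9*, the DNA-binding part of the interferon-activated complex and a gene chosen after its values were seen, was at 22.7 CPM against 61.1, 67.7 and 71.6 in WT, at 49.98 against 89.4 and 65.8 in KO22, and at 59.6 against 87.4 in KO26, lower in all lines (edgeR log2FC −0.95, SE 0.20, adjusted p = 0.0204). Calls lost in edgeR without 1 library, with the adjusted p they then had, were those of *Mx1* (called in 4 of 9, up to 0.0773 without KO26 of 9262, also uncalled without KO26) and *Irf9* (called in 4 of 9, up to 0.0911 without WT of 8995).

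Further interferon-inducible genes, most of them outside the list, were among the lower genes with the smallest p. *Ifi208*, of the DNA-sensing Ifi200 family on chromosome 1, was at 1.27 CPM against 12.8, 13.8 and 17.8 in WT, at 5.45 against 47.2 and 31.3 in KO22, and at 5.71 against 37.1 in KO26. Batch 8995 was far below batch 9262 in each line, and *Ifi208* had the largest decrease of the genes named by size (edgeR log2FC −3.02, SE 0.24, adjusted p = 0.000762). *Mndal*, a neighbour of the same family, was at 41.2 CPM against 155, 175 and 169 in WT, at 48.3 against 170.2 and 109 in KO22, and at 53.3 against 227 in KO26, also without overlap (edgeR log2FC −1.86, SE 0.17, adjusted p = 0.00126). *Ifi204*, another neighbour and a member of the interferon list, was at 52.6 CPM against 233, 246 and 236 in WT, at 179 against 482 and 392 in KO22, and at 109 against 345 in KO26 (edgeR log2FC −1.71, SE 0.17, adjusted p = 0.00165). *Gbp11*, a guanylate-binding protein gene on chromosome 5, was at 3.85 CPM against 22.3, 28.8 and 26.3 in WT, at 0.0865 against 1.398 and 1.09 in KO22, and at 7.33 against 45.8 in KO26. KO22 expressed *Gbp11* near 1 CPM or below, and all 3 lines were separated (edgeR log2FC −2.75, SE 0.21, adjusted p = 0.000762). *Ddx60*, a helicase of antiviral RNA sensing, was at 28.4 CPM against 186, 194 and 225 in WT, at 50.8 against 201 and 129.7 in KO22, and at 72.2 against 317 in KO26, with no overlap in any line (edgeR log2FC −2.22, SE 0.23, adjusted p = 0.00178).

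Very large interferon-inducible GTPases lie in a cluster on chromosome 7. *Gvin1* was at 14.4 CPM against 52.5, 69.3 and 58.6 in WT, at 22.2 against 101 and 60.3 in KO22, and at 13.1 against 69.97 in KO26, lower in every 8995 library (edgeR log2FC −2.09, SE 0.20, adjusted p = 0.00128). *Gvin2* was at 7.51 CPM against 35.5, 48.99 and 46.7 in WT, at 13.8 against 71.98 and 39.3 in KO22, and at 10.6 against 65.9 in KO26, in the same order (edgeR log2FC −2.38, SE 0.23, adjusted p = 0.00146). Both overlap pseudogenes with which reads may be shared. *Gm20559*, a gene of uncertain function on chromosome 6 that overlaps 2 others, was at 27.4 CPM against 104, 109 and 119 in WT, at 22.3 against 76.2 and 54.7 in KO22, and at 65.5 against 195 in KO26 and separated the batches in each line (edgeR log2FC −1.74, SE 0.15, adjusted p = 0.000911). *Dock10*, an exchange factor for the small GTPases CDC42 and RAC, was at 0.437 CPM against 2.74, 2.95 and 2.66 in WT, at 37.9 against 156 and 109.9 in KO22, and at 0.418 against 1.97 in KO26. It was near 3 CPM or less in WT and KO26 and above 37 in KO22, yet lower in batch 8995 everywhere (edgeR log2FC −2.06, SE 0.21, adjusted p = 0.001704).

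Symbol families were chosen after the values were seen and hold genes already given above, so their counts are a description only. Among genes starting with *Gvin*, edgeR called 9 lower and 0 higher (0 and 0) of 9 tested, median −2.38, 7 of them pseudogenes that may share reads with *Gvin1* and *Gvin2*. Among the *Gbp* genes edgeR called 8 lower and 0 higher (0 and 0) of 10 tested, median −1.70. For the *Ifi2* genes, the DNA-sensing family above, edgeR called 10 lower and 0 higher (0 and 0) of 12 tested, median −2.16. The *Oas* and *Oasl* enzymes held 7 of 9 lower (edgeR, median −1.82), the *Phf11* genes 4 of 5 (−1.67), the *Trim12* and *Trim30* genes 4 of 6 (−1.37), and the *Slfn* genes 6 of 8 (−1.37), of which 5 were lower in all 3 lines. *Irgm* and *Iigp* GTPases held 3 of 5 lower (−1.08), the *Ifit* and *Ifitm* genes together 3 of 12 (−1.002), all 3 of them *Ifit*, and interferon-inducible *Parp* genes 3 of 5 (−0.69), with 0 higher in each by edgeR or DESeq2. With total counts or DESeq2 size factors none of these medians changed sign.

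Antigen presentation by MHC class I, the display of cell-internal peptides to T cells, fell with the interferon genes. In this list edgeR called 10 lower and 0 higher (0 and 0) of 13 tested, median −0.87 (WT −1.27, KO22 −0.99, KO26 −0.41, 1 library out −1.08 to −0.70, total counts −1.04 with 0 and 11), and among all *H2* symbols edgeR called 10 lower and 0 higher (0 and 0) of 17 tested, median −1.18. *Tap1*, the peptide transporter, was at 16.7 CPM against 64.1, 72.9 and 79.1 in WT, at 31.3 against 111 and 74.7 in KO22, and at 61.3 against 138 in KO26. Every line was separated (edgeR log2FC −1.66, SE 0.20, adjusted p = 0.00254), and the gene lies next to *Psmb9* with which reads may be shared. *H2-Q4*, a class I heavy chain, was at 9.85 CPM against 31.9, 34.3 and 40.1 in WT, at 21.97 against 60.9 and 44.2 in KO22, and at 31.97 against 69.97 in KO26, lower throughout (edgeR log2FC −1.44, SE 0.18, adjusted p = 0.00295). *H2-T23*, a non-classical class I chain read by natural killer cells, was at 37.1 CPM against 113, 93.8 and 124 in WT, at 23.95 against 52.4 and 42.3 in KO22, and at 67.00 against 139 in KO26, separated in each line (edgeR log2FC −1.23, SE 0.16, adjusted p = 0.00334). *B2m*, the shared light chain, was at 1128 CPM against 2326, 3009 and 2840.2 in WT, at 2893 against 4832 and 3692 in KO22, and at 3165 against 3767 in KO26. The KO26 difference was small and the call was near the limit (edgeR log2FC −0.74, SE 0.20, adjusted p = 0.0493). The edgeR call held in 4 of 9 fits without 1 library (adjusted p up to 0.2796, without WT of 8995).

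The promoters of the genes called lower held an interferon element more often than promoters at large. RefSeq windows on GRCm38.p6, from 250 bases before the start to 50 after, were matched by symbol for 542 of the 924 genes called lower with 1 direction, and searched on both strands for the core of the interferon-stimulated response element, GAAA, any 2 bases and GAAA. It was in 87 of their 709 promoters (12.3%), in 23 of 771 (2.98%) of the genes called higher with 1 direction, in 3.24% of the promoters of tested genes and in 3.44% of all 32851 in the table. In the interferon-stimulated list 15 of 28 promoters held it (53.6%), a share that describes how the list was chosen and not the batch. Parts of 4 promoters are shown because these genes carried the fall in all lines, with the matched letters in capitals, and a match describes letters only, not a bound site. In all, 8 elements were searched. They are *Ifi208* (chr1:173673567-173673656, plus strand), *Ddx60* (chr8:61927994-61928086, plus strand), *Gbp3* (chr3:142559959-142560043, plus strand) and *H2-T23* (chr17:36032776-36032865, minus strand).
Ifi208: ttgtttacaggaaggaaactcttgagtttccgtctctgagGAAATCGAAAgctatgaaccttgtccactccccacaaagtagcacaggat
Ddx60: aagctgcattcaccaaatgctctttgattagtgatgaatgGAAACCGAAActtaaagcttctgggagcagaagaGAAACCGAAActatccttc
Gbp3: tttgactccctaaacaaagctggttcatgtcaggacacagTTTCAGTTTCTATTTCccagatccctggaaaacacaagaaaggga
H2-T23: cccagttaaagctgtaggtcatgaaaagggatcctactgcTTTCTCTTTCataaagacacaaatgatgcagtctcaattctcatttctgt

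Chemokines, complement and adhesion genes moved less evenly. In the list of NF-kappaB targets, chemokines and cytokines edgeR called 7 lower and 1 higher of 24 tested, median −0.51 (WT −0.86, KO22 0.02, KO26 −0.87, 1 library out −0.91 to −0.31, total counts −0.67 with 1 and 9). *Ccl2*, which recruits monocytes, was at 74.6 CPM against 189, 234 and 208 in WT, at 191 against 396 and 303 in KO22, and at 38.3 against 115 in KO26. Batch 8995 was lower in each line without overlap (edgeR log2FC −1.29, SE 0.17, adjusted p = 0.00334). *Ccl7*, a neighbouring monocyte chemokine gene, was at 61.9 CPM against 108, 113 and 116 in WT, at 48.6 against 119 and 95.7 in KO22, and at 54.8 against 81.5 in KO26, lower in each line too (edgeR log2FC −0.88, SE 0.13, adjusted p = 0.00555). *Vcam1*, an adhesion molecule for leukocytes, was at 145 CPM against 252, 275 and 261 in WT, at 152 against 287 and 227 in KO22, and at 144 against 293 in KO26, with close values in the 3 lines (edgeR log2FC −0.87, SE 0.12, adjusted p = 0.00419). *Il33*, an alarmin cytokine and the 1 member called higher, was chosen after its values were seen. It was at 0.437 CPM against 0.411, 0.393 and 0.144 in WT, at 521 against 122 and 125 in KO22, and at 2.09 against 2.08 in KO26, so that its call (edgeR log2FC 1.48, SE 0.31, adjusted p = 0.0206) came from KO22, the line that expressed it most. The edgeR call held in 4 of 9 fits without 1 library (adjusted p up to 0.753, without KO22 of 8995), and was also lost without KO22.

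Complement and acute phase genes had negative medians in WT and KO26 and a positive one in KO22: edgeR called 2 lower and 0 higher (1 and 0) of 16 tested, median −0.75 (WT −1.56, KO22 0.44, KO26 −1.61, 1 library out −1.80 to −0.25, total counts −0.88 with 0 and 3). *C4b*, a complement cascade component, was at 5.52 CPM against 23.2, 33.4 and 35.1 in WT, at 6.31 against 24.5 and 17.8 in KO22, and at 8.82 against 65.8 in KO26. No line overlapped, and all were lower in batch 8995 (edgeR log2FC −2.35, SE 0.25, adjusted p = 0.00177). *C1ra*, a protease that starts the classical pathway, was at 77.7 CPM against 235, 261 and 280.2 in WT, at 18.2 against 24.1 and 19.6 in KO22, and at 71.6 against 238 in KO26. In KO22 the 8995 library lay below both 9262 libraries by little, and the call (edgeR log2FC −1.22, SE 0.26, adjusted p = 0.0209) held in 3 of 9 fits without 1 library (adjusted p up to 0.135, without WT of 8995), and was also lost without KO26. *C3*, the central complement protein, was at 688 CPM against 2892, 3414 and 2849 in WT, at 1144 against 809.7 and 634 in KO22, and at 306 against 3421 in KO26. It was lower in WT and KO26 and higher in KO22, and was not called by the additive fit (edgeR log2FC −1.33, SE 0.63, adjusted p = 0.206, interaction adjusted p = 1.12e-09).

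Contractile genes had positive medians in batch 8995 of all 3 lines. In the actin cytoskeleton and contractile list edgeR called 11 higher and 1 lower of 24 tested, median 0.55 (WT 0.77, KO22 0.21, KO26 0.72, 1 library out 0.46 to 0.69, total counts 0.39 with 10 and 1), and 15 members were higher in all 3 lines, beside 15.4% of all tested genes. *Tagln*, the smooth muscle actin-binding protein transgelin, was at 93.5 CPM against 35.5, 31.7 and 39.1 in WT, at 23.4 against 10.03 and 9.699 in KO22, and at 109.6 against 49.6 in KO26. All lines were separated with similar differences (edgeR log2FC 1.28, SE 0.11, adjusted p = 0.000911). *Gm48529*, on the opposite strand over *Tagln*, had 88.4 CPM against 35.5, 34.6 and 39.2 in WT, 24.9 against 11.9 and 10.6 in KO22, and 105 against 47.9 in KO26. Its values track those of *Tagln* (edgeR log2FC 1.198, SE 0.11, adjusted p = 0.000911), and reads of the pair may be shared since the strand of counting is not stated. *Myl9*, the regulatory myosin light chain, was at 103 CPM against 44.4, 42.02 and 41.9 in WT, at 13.8 against 8.15 and 5.28 in KO22, and at 146 against 65.6 in KO26, separated in each line (edgeR log2FC 1.16, SE 0.13, adjusted p = 0.00221). *Acta2*, smooth muscle actin, was at 1653 CPM against 641, 589 and 642 in WT, at 233 against 153 and 147 in KO22, and at 1770.3 against 866 in KO26. It was lowest in KO22 of both batches and still higher in batch 8995 of each line (edgeR log2FC 1.06, SE 0.14, adjusted p = 0.00367).

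Other cytoskeletal genes followed or went the other way. *Vcl*, the adhesion protein vinculin and chosen after its values were seen, was at 365 CPM against 227, 224 and 219 in WT, at 296 against 171 and 183 in KO22, and at 277 against 213 in KO26, higher in each line (edgeR log2FC 0.63, SE 0.10, adjusted p = 0.00823). In edgeR its call was lost without WT of 8995 (adjusted p = 0.0571), and its reads may be shared with *Ap3m1*. *Mylk*, the kinase that activates myosin light chains and chosen likewise, was at 17.4 CPM against 28.4, 31.7 and 33.4 in WT, at 1.12 against 3.66 and 3.18 in KO22, and at 59.6 against 108 in KO26. It was lower in batch 8995 of every line, the 1 member of the list called lower (edgeR log2FC −0.98, SE 0.16, adjusted p = 0.00725). *Dpysl3*, a cytoskeletal regulator outside the lists, had 241 CPM against 104, 114 and 112 in WT, 373 against 201 and 225 in KO22, and 184 against 92.8 in KO26, separated in each line (edgeR log2FC 0.98, SE 0.11, adjusted p = 0.00203). Of the *Myl* and *Myh* symbols, chosen after the values were seen, edgeR called 3 higher and 0 lower (1 and 0) of 10 tested, median 0.19. An SRF-binding CArG box, searched by name on both strands, was in 5 of 21 promoters of the contractile list (23.8%), in 1.37% of those of tested genes and in 1.63% of all. The NF-kappaB motif was in the same share of the list, against 8.19% for tested genes. The CArG box was in 2.33% of promoters of genes called higher with 1 direction and in 1.41% of those called lower. The list was chosen as contractile genes, so its share of CArG boxes describes the list and not the batch. The *Myl9* stretch with its match in capitals (chr2:156775263-156775352, plus strand) is shown as an example, again as letters only.
Myl9: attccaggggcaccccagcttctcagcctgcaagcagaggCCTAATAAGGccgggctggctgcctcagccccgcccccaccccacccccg

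Targets of YAP and TEAD, which respond to cell shape and density, went both ways: edgeR called 4 higher and 0 lower (5 and 2) of 18 tested, median 0.13 (WT 0.16, KO22 0.00, KO26 0.15, 1 library out 0.11 to 0.26, total counts −0.03 with 2 and 4), and 8 were higher and 6 lower in all 3 lines. For TGF-beta and BMP signalling edgeR called 4 higher and 0 lower (5 and 2) of 24 tested, median 0.20 (WT 0.01, KO22 0.25, KO26 0.02, 1 library out 0.16 to 0.25, total counts 0.04 with 3 and 4). The ligand gene *Tgfb2* was at 134 CPM against 98.6, 95.2 and 83.2 in WT, at 43.8 against 31.1 and 26.5 in KO22, and at 185 against 112 in KO26, separated in all lines (edgeR log2FC 0.61, SE 0.11, adjusted p = 0.0105). *Id3*, a BMP-induced inhibitor of differentiation, was at 79.9 CPM against 55.3, 53.4 and 64.2 in WT, at 121 against 47.1 and 65.8 in KO22, and at 105 against 59.4 in KO26, with batch 8995 above batch 9262 in each line (edgeR log2FC 0.79, SE 0.15, adjusted p = 0.0136). Its relative *Id1* was at 28.6 CPM against 13.6, 11.6 and 18.5 in WT, at 90.02 against 43.6 and 68.8 in KO22, and at 57.1 against 21.7 in KO26 (edgeR log2FC 0.98, SE 0.20, adjusted p = 0.0162), a call that held in 6 of 9 fits without 1 library (adjusted p up to 0.0873, without WT of 8995), and was also lost without KO26.

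Immediate-early genes, which respond to growth factors and stress within minutes, had positive medians in all 3 lines: edgeR called 5 higher and 0 lower (1 and 0) of 26 tested, median 0.54 (WT 0.39, KO22 0.80, KO26 0.52, 1 library out 0.40 to 0.63, total counts 0.38 with 4 and 1), and 13 of the 26 were higher in all 3 lines. *Fosl2*, an AP-1 subunit, was at 276 CPM against 129, 106 and 107 in WT, at 491 against 107 and 113 in KO22, and at 116 against 80.04 in KO26. Each line was separated, KO22 most (edgeR log2FC 1.42, SE 0.22, adjusted p = 0.00583). *Nr4a2*, an orphan nuclear receptor, was at 6.79 CPM against 3.08, 4.12 and 3.52 in WT, at 37.2 against 12.1 and 15.5 in KO22, and at 10.6 against 4.51 in KO26, higher without overlap (edgeR log2FC 1.201, SE 0.17, adjusted p = 0.00501). *Nr4a1*, its relative, was at 2.62 CPM against 1.85, 0.393 and 1.51 in WT, at 59.8 against 7.14 and 9.62 in KO22, and at 4.501 against 1.504 in KO26. WT values were low, KO22 of batch 8995 stood out, and all 3 lines were separated (edgeR log2FC 2.004, SE 0.39, adjusted p = 0.0138). Without 1 library the log2FC of *Nr4a1* ranged from 1.19 to 2.51. *Rgs2*, a brake on G protein signalling outside the lists, was at 0.834 CPM against 0, 0.0982 and 0.359 in WT, at 101 against 13.3 and 13.97 in KO22, and at 3.67 against 0.694 in KO26. It was under 1 CPM in WT and 101 CPM in KO22 of batch 8995, and called (edgeR log2FC 2.73, SE 0.30, adjusted p = 0.00203).

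The early secretory pathway, which moves new proteins into the endoplasmic reticulum (ER) and on to the Golgi, had positive medians in all 3 lines. Of its genes, gathered by symbol after the values were seen, edgeR called 31 higher and 1 lower of 68 tested, median 0.41 (WT 0.52, KO22 0.20, KO26 0.60), and 44 were higher in all 3 lines, beside 15.4% of all tested genes. With total counts 19 were higher and 1 lower, and the median was 0.24. *Serp1*, a stabiliser of newly made membrane proteins, was at 235 CPM against 108, 112 and 98.4 in WT, at 393 against 207 and 221 in KO22, and at 234 against 103 in KO26. The batches were separated in each line (edgeR log2FC 1.07, SE 0.11, adjusted p = 0.00154). *Sec61b*, part of the channel through which proteins enter the ER, was at 54.8 CPM against 19.8, 17.97 and 19.5 in WT, at 73.5 against 44.4 and 61.3 in KO22, and at 62.8 against 15.04 in KO26, with the smallest difference in KO22 (edgeR log2FC 1.31, SE 0.23, adjusted p = 0.00983). *Kdelr2*, the receptor that returns ER proteins, was at 204 CPM against 92.5, 96.8 and 97.4 in WT, at 245 against 173 and 181 in KO22, and at 284 against 136 in KO26 (edgeR log2FC 0.88, SE 0.13, adjusted p = 0.00517). *Sec61b* and *Kdelr2* were chosen after their values were seen, neither overlapped within a line, and the edgeR call of *Sec61b* was lost without WT of 8995 (adjusted p = 0.09202). *Arf3*, a small GTPase of Golgi traffic and outside this list, was at 449 CPM against 165, 141 and 120.3 in WT, at 697 against 282 and 317 in KO22, and at 422 against 180.0 in KO26, well separated (edgeR log2FC 1.40, SE 0.13, adjusted p = 0.00131). *Sec16b*, which marks ER exit sites, was the 1 member of the list called lower.

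ER chaperones and targets of XBP1 and ATF6 were higher in part: edgeR called 6 higher and 0 lower (0 and 0) of 21 tested, median 0.40 (WT 0.60, KO22 0.16, KO26 0.47, 1 library out 0.25 to 0.51, total counts 0.23 with 2 and 0). *Manf*, a secreted ER stress protein, was at 73.3 CPM against 27.8, 27.7 and 24.8 in WT, at 145 against 99.02 and 104 in KO22, and at 73.5 against 24.3 in KO26. It was higher in each line, least in KO22 (edgeR log2FC 1.18, SE 0.17, adjusted p = 0.00531). *Herpud1*, a membrane protein of ER-associated degradation, was at 39.9 CPM against 25.8, 27.9 and 28.5 in WT, at 126 against 71.5 and 58.7 in KO22, and at 57.5 against 41.6 in KO26, separated in each line (edgeR log2FC 0.67, SE 0.12, adjusted p = 0.0122). In edgeR the call of *Manf* was lost without WT of 8995 (adjusted p = 0.0533). The ER stress element, CCAAT, any 9 bases and CCACG on either strand, was in 9 of 18 promoters of the list (50.0%), in 0.147% of those of tested genes and in 0.119% of all. It was in 0.389% of promoters of genes called higher with 1 direction and in 0.141% of those called lower. The list was chosen as targets of XBP1 and ATF6, so its share describes the list and not the batch.

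**Figure D2:**
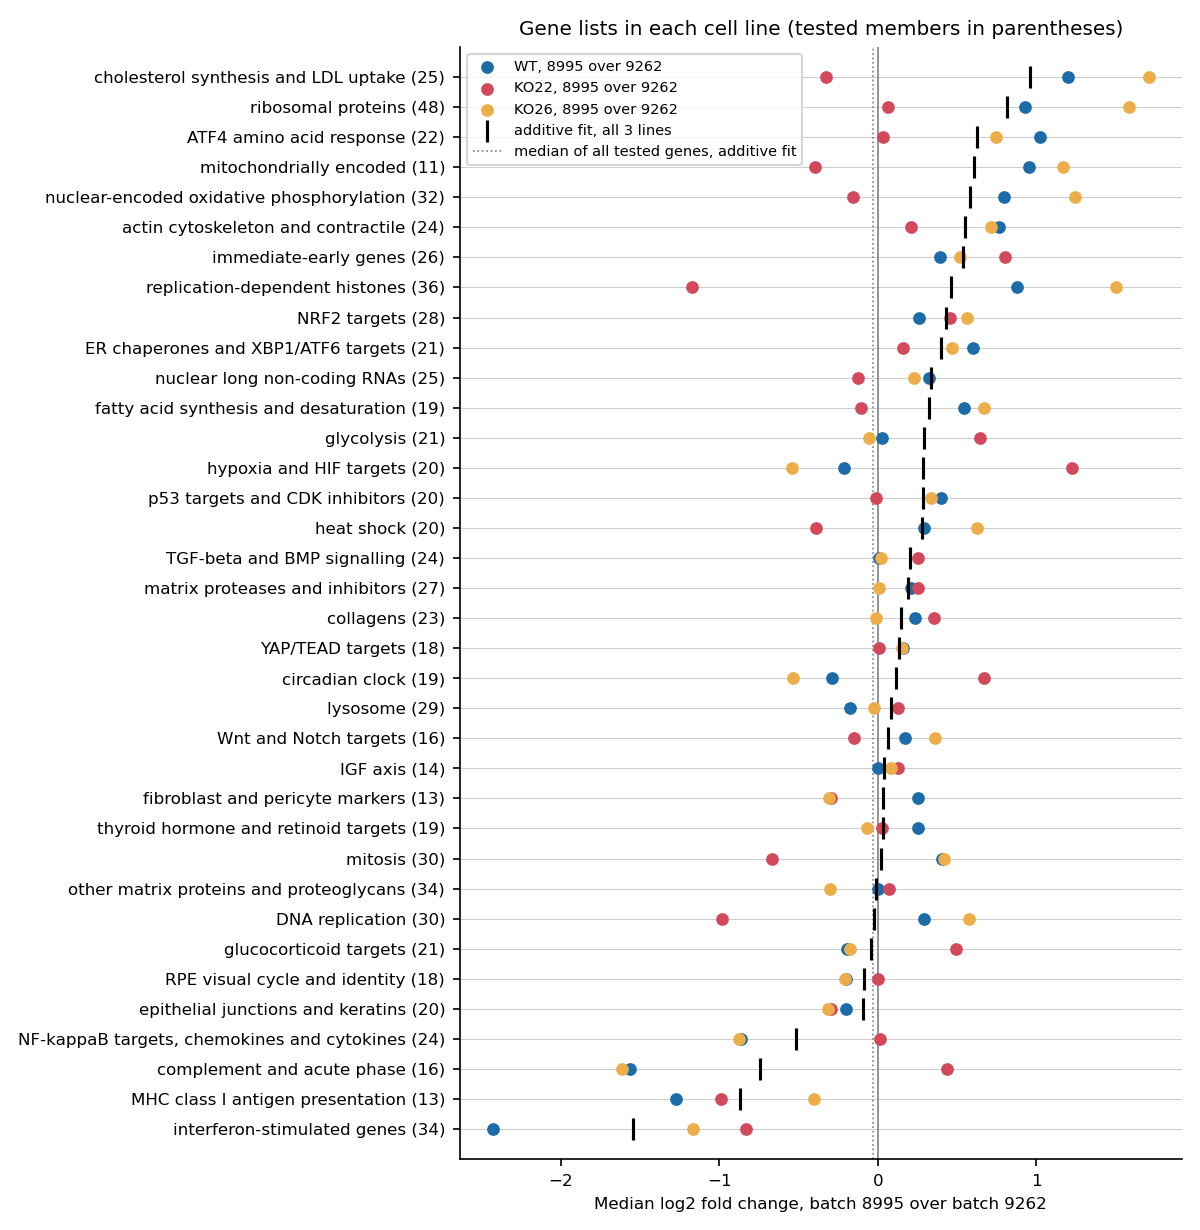
Median batch difference of each gene list within WT, KO22 and KO26, with the additive fit as a bar. Interferon and MHC class I lists lie left of 0 in all lines, contractile, immediate-early and NRF2 lists right of 0, and KO22 lies on the other side for cell cycle, cholesterol and respiratory chain lists.

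Genes of the amino acid response under ATF4 were higher in WT and KO26 and near 0 in KO22 at the median: edgeR called 10 higher and 0 lower (0 and 0) of 22 tested, median 0.62 (WT 1.02, KO22 0.03, KO26 0.74, 1 library out 0.35 to 0.97, total counts 0.45 with 8 and 0), 7 of the called with 1 direction. *Atf5*, a transcription factor of the same response and outside the list, was at 48.7 CPM against 17.9, 17.3 and 17.6 in WT, at 38.1 against 18.2 and 17.2 in KO22, and at 74.5 against 31.2 in KO26. All lines were separated with similar differences (edgeR log2FC 1.29, SE 0.11, adjusted p = 0.000911). *Slc7a11*, the cystine importer, was at 5.76 CPM against 2.33, 2.06 and 2.51 in WT, at 288 against 127 and 129.8 in KO22, and at 22.3 against 13.6 in KO26. KO22 expressed it far above WT, and each line was higher in batch 8995 (edgeR log2FC 1.09, SE 0.13, adjusted p = 0.00223). *Slc7a1*, an arginine importer, was at 49.5 CPM against 21.05, 18.4 and 20.5 in WT, at 104 against 80.8 and 66.1 in KO22, and at 72.5 against 39.3 in KO26 (edgeR log2FC 0.93, SE 0.15, adjusted p = 0.00745). *Asns*, asparagine synthetase and chosen after its values were seen, was at 83.2 CPM against 27.4, 31.3 and 23.2 in WT, at 156 against 112 and 92.6 in KO22, and at 175 against 96.00 in KO26, higher in each line (edgeR log2FC 1.09, SE 0.18, adjusted p = 0.00772). *Psat1*, an enzyme of serine synthesis, was at 165 CPM against 57.6, 60.8 and 52.96 in WT, at 239 against 234 and 220.4 in KO22, and at 311 against 158 in KO26, almost level in KO22 (edgeR log2FC 0.93, SE 0.21, adjusted p = 0.0266). These 3 calls were lost in edgeR without 1 library, with adjusted p of *Slc7a1* (0.0576 without WT of 8995), *Asns* (0.0546 without WT of 8995) and *Psat1* (called in 3 of 9, up to 0.225 without WT of 8995, also uncalled without KO26). The ATF4 element TGATGNAA was in 6 of 22 promoters of the list (27.3%), in 2.41% of those of tested genes and in 3.97% of all. It was in 1.95% of promoters of genes called higher with 1 direction and in 3.53% of those called lower. The list was chosen as ATF4 targets, so its share describes the list and not the batch. The *Slc7a11* stretch (chr3:50443614-50443719, minus strand) holds 2 matches.
Slc7a11: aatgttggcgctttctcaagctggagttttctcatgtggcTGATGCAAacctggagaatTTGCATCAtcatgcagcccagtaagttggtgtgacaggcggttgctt

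NRF2 targets, which guard against oxidants, were higher in all 3 lines at the median: edgeR called 7 higher and 0 lower (2 and 1) of 28 tested, median 0.43 (WT 0.26, KO22 0.46, KO26 0.56, 1 library out 0.37 to 0.50, total counts 0.27 with 5 and 2). *Ftl1*, the ferritin light chain, was at 785 CPM against 448, 457 and 456 in WT, at 1202 against 567 and 583 in KO22, and at 1272 against 574 in KO26. Every line was separated (edgeR log2FC 0.98, SE 0.11, adjusted p = 0.00209), and *Gm10252* overlaps the gene. *Txnrd1*, thioredoxin reductase, was at 61.1 CPM against 38.4, 40.3 and 40.3 in WT, at 161 against 97.6 and 119.6 in KO22, and at 86.4 against 49.6 in KO26, also separated (edgeR log2FC 0.65, SE 0.11, adjusted p = 0.00819). *Hmox1*, heme oxygenase, was at 79.9 CPM against 54.7, 52.5 and 46.4 in WT, at 318 against 79.3 and 70.1 in KO22, and at 101 against 66.4 in KO26, with the largest difference in KO22 (edgeR log2FC 1.18, SE 0.24, adjusted p = 0.01704), and the call was lost without WT replicate 3 of 9262 (adjusted p = 0.0509). *Mt1*, a metal-binding metallothionein listed with glucocorticoid targets, was at 53.7 CPM against 37.1, 37.02 and 32.7 in WT, at 258 against 48.6 and 71.6 in KO22, and at 63.01 against 29.6 in KO26. It was higher in each line, most in KO22 (edgeR log2FC 1.31, SE 0.24, adjusted p = 0.0123), and *Hmox1* and *Mt1* were chosen after their values were seen. Without 1 library the log2FC ranged from 0.62 to 1.49 for *Hmox1* and from 0.78 to 1.70 for *Mt1*. *Fth1*, the ferritin heavy chain and most abundant member, was at 1547 to 3416 against 1367 to 1726 CPM, level in WT and not called (edgeR log2FC 0.54, adjusted p = 0.0820). The antioxidant element TGACNNNGC was in 8 of 29 promoters of the list (27.6%), in 14.1% of those of tested genes and in 12.4% of all. Other lists held it too, the ATF4 list in 31.8% and the ER chaperone list in 22.2%.

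In the heat shock list edgeR called 2 higher and 0 lower (0 and 0) of 20 tested, median 0.28 (WT 0.29, KO22 −0.39, KO26 0.62, 1 library out 0.01 to 0.36, total counts 0.10 with 2 and 0), beside 4.31% higher among all tested genes. Of the 20 members, 3 were higher in all 3 lines, close to the 15.4% of all tested genes. *Dnajb1*, a co-chaperone of HSP70, was at 20.1 CPM against 10.6, 11.2 and 10.9 in WT, at 76.4 against 36.5 and 44.1 in KO22, and at 33.5 against 12.8 in KO26. The small heat shock protein gene *Cryab* was at 154 CPM against 66.2, 97.2 and 82.96 in WT, at 99.4 against 37.6 and 38.6 in KO22, and at 176 against 91.9 in KO26. Both were higher in each line without overlap (edgeR log2FC 1.02, SE 0.13, adjusted p = 0.00334 for *Dnajb1*, and log2FC 1.08, SE 0.14, adjusted p = 0.00341 for *Cryab*).

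Among p53 targets and CDK inhibitors edgeR called 3 higher and 0 lower (1 and 0) of 20 tested, median 0.28 (WT 0.40, KO22 −0.01, KO26 0.34, 1 library out 0.18 to 0.41, total counts 0.12 with 2 and 0). *Zmat3*, an RNA-binding p53 target, was at 138 CPM against 62.6, 64.2 and 63.7 in WT, at 50.7 against 29.5 and 31.8 in KO22, and at 110.2 against 67.1 in KO26, separated in each line (edgeR log2FC 0.88, SE 0.11, adjusted p = 0.00283). *Cdkn1a*, the CDK inhibitor p21, was at 116 CPM against 61.8, 71.6 and 61.2 in WT, at 78.00 against 50.1 and 46.7 in KO22, and at 150.5 against 125 in KO26 (edgeR log2FC 0.64, SE 0.12, adjusted p = 0.0127), a call that was lost without WT of 8995 (adjusted p = 0.101).

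**Figure D3:**
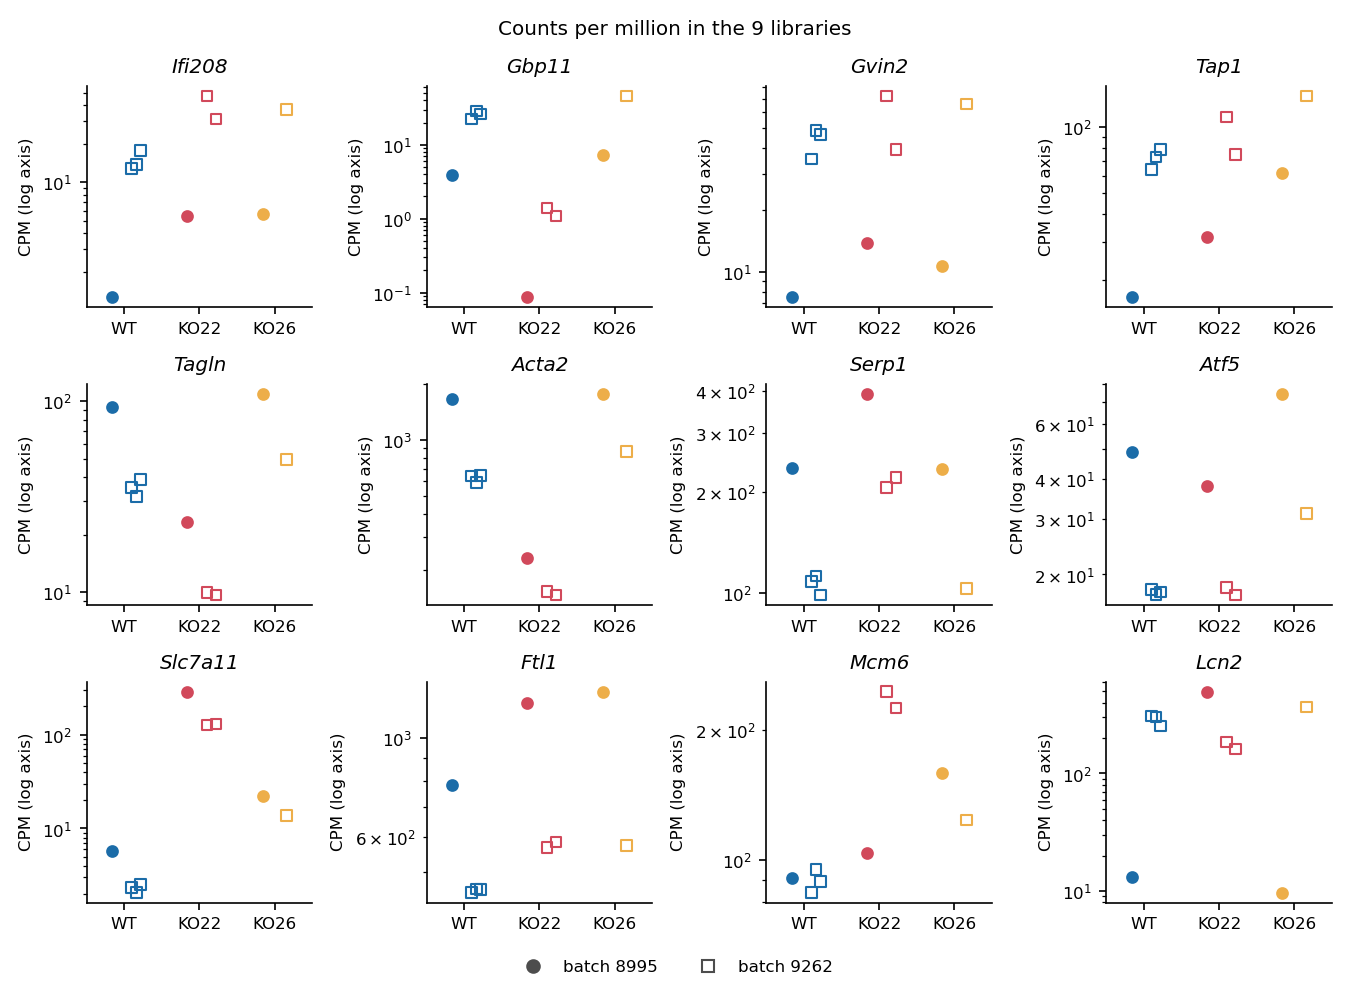
CPM of selected genes in each library, by line and batch. Interferon genes are lower and contractile, stress and secretory genes higher in the 8995 library of each line, on line-specific levels, while *Mcm6* and *Lcn2* differ between lines.

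Ribosomal protein genes had high medians in KO26 and WT and a median near 0 in KO22: edgeR called 26 higher and 0 lower (0 and 0) of 48 tested, median 0.81 (WT 0.93, KO22 0.06, KO26 1.58, 1 library out 0.54 to 1.23, total counts 0.64 with 22 and 0), with 24 of the called in 1 direction and 46 passing the interaction. *Rps29*, of the small subunit, was at 231 CPM against 72.1, 72.4 and 70.8 in WT, at 82.2 against 38.6 and 72.9 in KO22, and at 271 against 41.8 in KO26. In KO22 the 8995 library lay well above 1 of the 9262 libraries and near the other (edgeR log2FC 1.59, SE 0.31, adjusted p = 0.01405). *Rpl28*, of the large subunit, was at 400.4 CPM against 168, 156 and 147 in WT, at 217 against 124 and 159 in KO22, and at 507 against 136 in KO26, again closest in KO22 (edgeR log2FC 1.26, SE 0.19, adjusted p = 0.005803). Both edgeR calls were lost without 1 library: *Rps29* (0.108 without WT of 8995) and *Rpl28* (0.0519 without WT of 8995).

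Nuclear-encoded genes of oxidative phosphorylation showed the same split: edgeR called 6 higher and 0 lower (0 and 0) of 32 tested, median 0.58 (WT 0.79, KO22 −0.16, KO26 1.24, 1 library out 0.34 to 0.95, total counts 0.41 with 5 and 0). *Cox4i1*, a subunit of cytochrome oxidase, was at 159 CPM against 78.4, 74.2 and 68.2 in WT, at 175 against 137 and 165 in KO22, and at 198 against 61.2 in KO26. The difference was larger in WT and KO26 than in KO22, where the 8995 library lay just above both others (edgeR log2FC 0.97, SE 0.21, adjusted p = 0.0212). The edgeR call of *Cox4i1* held in 4 of 9 fits without 1 library (adjusted p up to 0.141, without WT of 8995), and was also lost without KO26. For mitochondrially encoded genes edgeR called 1 higher and 0 lower (0 and 0) of 11 tested, median 0.60 (WT 0.96, KO22 −0.39, KO26 1.17, 1 library out 0.33 to 1.12, total counts 0.42 with 1 and 0). The 1 call, *mt-Co3*, was at 25.03 CPM against 0, 0.0982 and 0.0718 in WT, at 0 against 0.482 and 0.388 in KO22, and at 0.0928 against 0.116 in KO26, and so came from WT of batch 8995 alone (edgeR log2FC 4.86, SE 1.28, adjusted p = 0.0412). In edgeR that call held in 1 of 9 fits without 1 library (adjusted p up to 0.156, without WT replicate 3 of 9262), and was also lost averaged over lines, with filterByExpr, without KO26, without KO22 and by the DESeq2 test.

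Cholesterol synthesis and LDL uptake had the largest positive median: edgeR called 8 higher and 0 lower (0 and 0) of 25 tested, median 0.96 (WT 1.199, KO22 −0.32, KO26 1.71, 1 library out 0.72 to 1.28, total counts 0.80 with 8 and 0), 6 of the called with 1 direction and 22 members passing the interaction. *Cyp51*, a sterol demethylase, was at 123 CPM against 29.9, 28.1 and 27.1 in WT, at 62.96 against 65.95 and 62.5 in KO22, and at 224 against 38.1 in KO26. Batch 8995 was higher in WT and KO26 and between the 9262 libraries in KO22 (edgeR log2FC 1.62, SE 0.35, adjusted p = 0.0229, interaction adjusted p = 4.15e-09). The edgeR call of *Cyp51* held in 3 of 9 fits without 1 library (adjusted p up to 0.234, without WT of 8995), and was also lost without KO26. For fatty acid synthesis and desaturation edgeR called 3 higher and 0 lower (1 and 0) of 19 tested, median 0.32 (WT 0.54, KO22 −0.11, KO26 0.67, 1 library out 0.16 to 0.67, total counts 0.16 with 3 and 0). *Scd2*, a fatty acid desaturase, was at 717 CPM against 259, 250.1 and 218 in WT, at 371 against 259 and 229.9 in KO22, and at 1086 against 312 in KO26. *Scd1*, its relative, was at 172 CPM against 73.6, 88.4 and 60.7 in WT, at 248 against 149 and 135 in KO22, and at 251 against 68.7 in KO26. Both were higher in each line without overlap (edgeR log2FC 1.32, SE 0.19, adjusted p = 0.004604 for *Scd2*, and log2FC 1.25, SE 0.18, adjusted p = 0.004604 for *Scd1*). *Fabp5*, a fatty acid carrier, was at 31.5 CPM against 11.1, 6.58 and 7.75 in WT, at 92.96 against 28.7 and 35.3 in KO22, and at 34.5 against 15.96 in KO26, separated as well (edgeR log2FC 1.57, SE 0.18, adjusted p = 0.00221).

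Cell cycle genes did not share a direction. For DNA replication edgeR called 1 lower and 0 higher (0 and 0) of 30 tested, median −0.02 (WT 0.29, KO22 −0.98, KO26 0.57, 1 library out −0.33 to 0.41, total counts −0.20 with 0 and 1), with 29 members passing the interaction, the median being highest without the KO22 library of batch 8995 and lowest without the WT library of batch 8995. *Mcm6*, of the replicative helicase, was at 90.9 CPM against 83.98, 94.9 and 89.3 in WT, at 104 against 246 and 225 in KO22, and at 159 against 124 in KO26. KO22 was lower in batch 8995, KO26 higher, and WT level (edgeR log2FC −0.27, adjusted p = 0.492, interaction adjusted p = 6.05e-06). *Orc1*, which marks replication origins, was at 7.95 CPM against 14.4, 14.7 and 16.5 in WT, at 19.3 against 28.4 and 27.6 in KO22, and at 9.47 against 14.9 in KO26, lower in each line and the 1 call (edgeR log2FC −0.72, SE 0.14, adjusted p = 0.0163), which was lost without WT of 8995 (adjusted p = 0.104).

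For mitosis edgeR called 0 of 30 tested (3 higher and 1 lower unadjusted, 0 and 1 by DESeq2), median 0.02 (WT 0.41, KO22 −0.67, KO26 0.42, 1 library out −0.20 to 0.40, total counts −0.15 with 0 and 1), again with 29 members passing the interaction, and the median was below 0 without the WT library of batch 8995 or either KO26 library. *Top2a*, the topoisomerase of dividing cells, was at 382 CPM against 338, 342 and 329 in WT, at 816 against 1397 and 1257 in KO22, and at 712 against 792 in KO26. KO22 was lower in batch 8995 and the other lines differed little (edgeR log2FC −0.19, adjusted p = 0.472). *Cdca8*, of the chromosomal passenger complex, was at 15.5 CPM against 8.98, 8.25 and 9.76 in WT, at 59.2 against 69.3 and 67.97 in KO22, and at 45.8 against 22.1 in KO26, higher in WT and KO26 and lower in KO22 (edgeR log2FC 0.51, adjusted p = 0.131, interaction adjusted p = 7.02e-05). *Ccnd1*, the G1 cyclin, had 126 CPM against 76.7, 99.1 and 83.9 in WT, 122 against 253 and 268 in KO22, and 197 against 141 in KO26, with KO22 lower and the others higher (edgeR log2FC 0.03, adjusted p = 0.954). Replication-dependent histones, made in S phase, also went apart between lines: edgeR called 1 higher and 1 lower of 36 tested, median 0.46 (WT 0.87, KO22 −1.17, KO26 1.50, 1 library out −0.04 to 1.05, total counts 0.28 with 1 and 1).

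Hypoxia targets had a positive median in KO22 and negative ones in WT and KO26: edgeR called 1 higher and 0 lower (0 and 0) of 20 tested, median 0.29 (WT −0.21, KO22 1.22, KO26 −0.54, 1 library out −0.34 to 0.58, total counts 0.13 with 1 and 0), all 20 passed the interaction, and the lowest median was that without the KO22 library of batch 8995. *Ddit4*, an inhibitor of mTORC1, was at 19.7 CPM against 8.57, 5.302 and 4.95 in WT, at 50.1 against 8.003 and 6.75 in KO22, and at 39.3 against 17.8 in KO26. It was the 1 call, higher in every line (edgeR log2FC 1.93, SE 0.27, adjusted p = 0.00421). *Ero1a*, an ER oxidase, was at 112 CPM against 179, 149 and 136 in WT, at 2393 against 399 and 333 in KO22, and at 182 against 717 in KO26. KO22 was higher in batch 8995 and KO26 lower (edgeR log2FC 0.49, adjusted p = 0.7005, interaction adjusted p = 4.57e-11). For glycolysis edgeR called 5 higher and 0 lower (0 and 0) of 21 tested, median 0.29 (WT 0.03, KO22 0.65, KO26 −0.06, 1 library out 0.05 to 0.44, total counts 0.13 with 1 and 0). *Eno1*, enolase, was at 515 CPM against 395, 318 and 326 in WT, at 1265 against 843 and 817 in KO22, and at 948 against 668 in KO26, separated in each line (edgeR log2FC 0.57, SE 0.11, adjusted p = 0.0158). This edgeR call was lost without WT of 8995 (adjusted p = 0.0796), and was also lost with total counts only.

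Of the 5 genes with the smallest interaction p among those with a mean of at least 10 CPM, 3 were inflammatory, and *Ero1a* above was another. *Lcn2*, an iron-binding acute phase protein, was at 13.3 CPM against 308, 303 and 253 in WT, at 497 against 185 and 162 in KO22, and at 9.65 against 369 in KO26. *Nos2*, inducible nitric oxide synthase, was at 0.556 CPM against 13.98, 8.74 and 10.8 in WT, at 85.1 against 21.98 and 14.2 in KO22, and at 0.5104 against 63.96 in KO26. *Cxcl5*, a neutrophil chemokine, was at 66.7 CPM against 447, 383 and 334 in WT, at 371 against 163 and 154 in KO22, and at 19.3 against 289.6 in KO26. All 3 were lower in batch 8995 of WT and KO26 and higher in KO22, so the additive fit called none (edgeR log2FC −1.98, adjusted p = 0.392, log2FC −1.31, adjusted p = 0.634 and log2FC −1.29, adjusted p = 0.355) while the interaction adjusted p were 4.52e-15, 2.61e-12 and 2.67e-12. *Gm56730*, a gene of unstated function on chromosome 15, was at 16.8 CPM against 26.7, 34.2 and 26.7 in WT, at 349 against 43.9 and 61.9 in KO22, and at 11.7 against 65.8 in KO26, in the same order (edgeR interaction adjusted p = 1.66e-11, additive log2FC 0.32, adjusted p = 0.8397).

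Matrix lists had medians near 0, with members going both ways. For collagens edgeR called 2 higher and 0 lower (0 and 0) of 23 tested, median 0.15 (WT 0.23, KO22 0.35, KO26 −0.01, 1 library out 0.09 to 0.25, total counts −0.01 with 0 and 0). *Col3a1*, a fibrillar collagen, was at 3584 CPM against 2534, 2619 and 1872 in WT, at 2798 against 1815 and 1461 in KO22, and at 4771 against 3754 in KO26, separated in each line (edgeR log2FC 0.60, SE 0.15, adjusted p = 0.0363), and the call held in 1 of 9 fits without 1 library (adjusted p up to 0.152, without WT of 8995), and was also lost with total counts only and without KO26. For other matrix proteins and proteoglycans edgeR called 1 lower and 0 higher (5 and 1) of 34 tested, median −0.01 (WT 0.00, KO22 0.07, KO26 −0.30, 1 library out −0.11 to 0.06, total counts −0.17 with 0 and 5), and 18 members passed the interaction. *Fn1*, fibronectin, was at 8007 CPM against 10646, 10890.3 and 10113 in WT, at 3220.0 against 1789.8 and 1816 in KO22, and at 7794 against 12617 in KO26, higher in batch 8995 of KO22 and lower elsewhere, and uncalled (edgeR log2FC −0.01, adjusted p = 0.985).

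Among matrix proteases and inhibitors edgeR called 5 higher and 3 lower of 27 tested, median 0.19 (WT 0.21, KO22 0.25, KO26 0.01, 1 library out 0.06 to 0.27, total counts 0.03 with 3 and 4). *Adamts9*, a metalloprotease, was at 85.5 CPM against 255, 283 and 300.5 in WT, at 24.5 against 48.8 and 40.4 in KO22, and at 182 against 283 in KO26. All lines were lower in batch 8995 (edgeR log2FC −1.12, SE 0.20, adjusted p = 0.00973), with an antisense neighbour that may share reads. Higher were *Plaur*, the urokinase receptor, at 8.86 to 45.7 against 2.73 to 28.8 CPM (edgeR log2FC 1.03, adjusted p = 0.009896), and *Serpinh1*, a collagen chaperone, at 304 to 488 against 162 to 262 CPM (edgeR log2FC 0.79, adjusted p = 0.0131). Both edgeR calls were lost without WT of 8995 (adjusted p = 0.0764 and 0.113). For the IGF axis edgeR called 1 higher and 0 lower (1 and 0) of 14 tested, median 0.04 (WT 0.00, KO22 0.13, KO26 0.08, 1 library out −0.08 to 0.16, total counts −0.13 with 1 and 0). *Igfbp6*, an IGF2-binding protein and the 1 call, was at 51.5 CPM against 31.9, 39.9 and 37.2 in WT, at 112 against 65.8 and 59.7 in KO22, and at 41.3 against 19.8 in KO26, higher in each line (edgeR log2FC 0.76, SE 0.13, adjusted p = 0.00898).

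Hormone- and clock-related lists showed no common direction at the median. For glucocorticoid targets edgeR called 3 higher and 3 lower of 21 tested, median −0.04 (WT −0.20, KO22 0.49, KO26 −0.18, 1 library out −0.27 to 0.10, total counts −0.26 with 2 and 5). *Klf15*, a metabolic transcription factor induced by glucocorticoids, was at 5.09 CPM against 7.75, 10.6 and 12.1 in WT, at 1.38 against 4.098 and 3.41 in KO22, and at 2.78 against 8.21 in KO26. *Hif3a*, a HIF subunit and a member of this list, was at 37.8 CPM against 65.7, 70.5 and 77.6 in WT, at 5.53 against 17.7 and 15.5 in KO22, and at 61.8 against 92.6 in KO26. Both were lower in each line without overlap (edgeR log2FC −1.26, SE 0.23, adjusted p = 0.01101 for *Klf15*, and log2FC −1.01, SE 0.17, adjusted p = 0.00865 for *Hif3a*). For thyroid hormone and retinoid targets edgeR called 2 higher and 1 lower of 19 tested, median 0.03 (WT 0.26, KO22 0.02, KO26 −0.07, 1 library out −0.02 to 0.16, total counts −0.16 with 2 and 2). *Crabp2*, the carrier of retinoic acid, was at 2.94 CPM against 1.23, 0.491 and 0.718 in WT, at 64.9 against 28.5 and 27.5 in KO22, and at 2.13 against 0.925 in KO26, higher in each line (edgeR log2FC 1.42, SE 0.22, adjusted p = 0.00602). *Aldh1a1*, which makes retinoic acid, was at 349 CPM against 552, 716 and 697 in WT, at 1.903 against 7.09 and 5.82 in KO22, and at 189 against 408 in KO26. KO22 was under 10 CPM, and each line was lower in batch 8995 (edgeR log2FC −1.15, SE 0.17, adjusted p = 0.00549), and it overlaps another gene.

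For the circadian clock edgeR called 1 higher and 1 lower of 19 tested, median 0.12 (WT −0.29, KO22 0.67, KO26 −0.53, 1 library out −0.45 to 0.22, total counts −0.04 with 0 and 1). For Wnt and Notch targets edgeR called 1 higher and 0 lower (2 and 0) of 16 tested, median 0.06 (WT 0.17, KO22 −0.15, KO26 0.36, 1 library out 0.06 to 0.45, total counts −0.10 with 0 and 0). For lysosome genes edgeR called 2 higher and 1 lower of 29 tested, median 0.08 (WT −0.18, KO22 0.13, KO26 −0.03, 1 library out −0.13 to 0.15, total counts −0.09 with 1 and 3).

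RPE and epithelial lists had medians near or below 0, with members going both ways. For RPE visual cycle and identity edgeR called 1 higher and 1 lower of 18 tested, median −0.09 (WT −0.20, KO22 0.00, KO26 −0.21, 1 library out −0.16 to −0.01, total counts −0.24 with 1 and 1). *Itgb5*, of the receptor for shed photoreceptor tips, was at 41.1 CPM against 58.7, 59.8 and 66.3 in WT, at 27.4 against 34.3 and 33.9 in KO22, and at 43.5 against 56.7 in KO26, lower in each line (edgeR log2FC −0.44, adjusted p = 0.0376), and the call held in 1 of 9 fits without 1 library (adjusted p up to 0.2004, without WT of 8995), and was also lost without KO26. For melanin and melanosome edgeR called 0 of 4 tested (0 higher and 1 lower unadjusted, 0 and 0 by DESeq2), median −0.14 (WT 0.04, KO22 −0.34, KO26 −0.28, 1 library out −0.28 to −0.08, total counts −0.31 with 0 and 1). For epithelial junctions and keratins edgeR called 1 lower and 0 higher (3 and 1) of 20 tested, median −0.10 (WT −0.20, KO22 −0.29, KO26 −0.31, 1 library out −0.22 to −0.06, total counts −0.26 with 0 and 3). *Cldn2*, a pore-forming tight junction gene, was at 49.3 CPM against 64.7, 86.1 and 98.6 in WT, at 0.0865 against 0.675 and 0.388 in KO22, and at 22.4 against 67.1 in KO26, lower in each line (edgeR log2FC −1.12, SE 0.24, adjusted p = 0.01995). The edgeR call of *Cldn2* held in 5 of 9 fits without 1 library (adjusted p up to 0.101, without KO26 of 9262), and was also lost without KO26. *Cldn1*, a sealing claudin, was at 0.173 to 169 against 4.35 to 326 CPM, lower in each line but not called (edgeR log2FC −1.44, SE 0.42, adjusted p = 0.05995). The member *Pard6b* went the other way, at 0 to 2.78 against 0 to 0.823 CPM. It was higher in WT and KO26 but not in KO22, and was not called either (edgeR log2FC 2.24, SE 0.66, adjusted p = 0.0625).

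For fibroblast and pericyte markers edgeR called 2 lower and 1 higher of 13 tested, median 0.03 (WT 0.26, KO22 −0.29, KO26 −0.31, 1 library out −0.08 to 0.12, total counts −0.13 with 0 and 3). *Pdgfra*, a growth factor receptor, was at 1141 CPM against 1467, 1572 and 1496 in WT, at 412 against 569.8 and 479 in KO22, and at 588 against 971 in KO26, lower in each line (edgeR log2FC −0.47, SE 0.12, adjusted p = 0.0405). *Fap*, a serine protease of activated fibroblasts, was at 1.75 CPM against 7.47, 7.17 and 9.11 in WT, at 1.64 against 3.37 and 2.79 in KO22, and at 3.76 against 8.67 in KO26, also lower in each line (edgeR log2FC −1.51, SE 0.28, adjusted p = 0.01197). Lost without 1 library in edgeR, with adjusted p, were *Pdgfra* (called in 2 of 9, up to 0.132 without KO22 replicate 1 of 9262, also uncalled without KO26) and *Fap* (0.0753 without WT of 8995). For endothelial markers edgeR called 1 higher and 1 lower of 8 tested, median 0.24 (WT −0.09, KO22 0.20, KO26 0.43, 1 library out 0.12 to 0.45, total counts 0.10 with 1 and 1), and filterByExpr turned the median (−0.24). *Pecam1*, a defining endothelial gene, was under 1 CPM in every library. The receptor gene *Kdr* was at 234 CPM against 160.2, 151 and 162 in WT, at 0.346 against 3.71 and 2.56 in KO22, and at 72.3 against 55.3 in KO26, uncalled (edgeR log2FC 0.07, adjusted p = 0.924), and *Flt1* was at 32.8 to 77.1 against 60.8 to 90.9 CPM and lower (edgeR log2FC −0.56, adjusted p = 0.0466). The call of *Flt1* in edgeR held in 2 of 9 fits without 1 library (adjusted p up to 0.266, without WT of 8995), and was also lost with DESeq2 size factors and without KO26. *Plvap*, higher, was at 0.5104 to 2.51 against 0 to 0.627 CPM (edgeR log2FC 2.03, adjusted p = 0.0376), and its call held in 2 of 9 fits without 1 library (adjusted p up to 0.155, without WT of 8995), and was also lost with filterByExpr and without KO22. On the opposite strand it overlaps *Gtpbp3*, also called higher at a mean of 5.03 CPM, with which reads may be shared. For macrophage and leukocyte markers edgeR called 0 of 6 tested (0 higher and 0 lower unadjusted, 0 and 0 by DESeq2), median −0.11 (WT −0.05, KO22 −0.27, KO26 −0.58, 1 library out −0.32 to 0.16, total counts −0.28 with 0 and 0), with *Cd68* at 3.695 to 9.34 against 3.84 to 7.86 CPM. For photoreceptor and retina markers edgeR called 0 of 8 tested (0 higher and 2 lower unadjusted, 0 and 1 by DESeq2), median −0.005 (WT −0.43, KO22 0.37, KO26 −0.69, 1 library out −0.54 to 0.36, total counts −0.17 with 0 and 0), with *Pde6b* at 1.48 to 1.75 against 1.55 to 4.59 CPM. For melanocyte and Schwann cell markers edgeR called 0 of 3 tested (0 higher and 1 lower unadjusted, 0 and 0 by DESeq2), median −0.29 (WT −0.73, KO22 −0.51, KO26 −0.41, 1 library out −0.61 to −0.25, total counts −0.47 with 0 and 0). For erythroid and muscle markers edgeR called 1 lower and 0 higher (0 and 0) of 3 tested, median −0.43 (WT −0.69, KO22 0.35, KO26 −1.23, 1 library out −0.89 to −0.17, total counts −0.59 with 0 and 1), and the median was 0.28 without the whole KO26 line.

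Some genes with clear values belong to no list. *Lars2*, mitochondrial leucyl-tRNA synthetase, was at 314 CPM against 61.4, 62.6 and 57.9 in WT, at 239 against 63.8 and 118 in KO22, and at 409 against 91.3 in KO26. It was higher in each line by a large margin (edgeR log2FC 2.004, SE 0.21, adjusted p = 0.00174). *Enpp1*, which makes pyrophosphate, was at 23.8 CPM against 8.64, 9.03 and 8.18 in WT, at 84.7 against 46.1 and 44.6 in KO22, and at 24.8 against 11.1 in KO26, separated in each line (edgeR log2FC 1.19, SE 0.13, adjusted p = 0.00203). *Gabarap*, an autophagosome protein gene, was at 129 CPM against 71.8, 72.4 and 68.97 in WT, at 98.8 against 49.7 and 57.3 in KO22, and at 137 against 68.01 in KO26, with similar differences in the 3 lines (edgeR log2FC 0.91, SE 0.10, adjusted p = 0.00203). *F5*, coagulation factor V, was at 0.0795 CPM against 0, 0.196 and 0 in WT, at 754 against 205 and 251 in KO22, and at 0.325 against 0.116 in KO26. It was near 0 outside KO22, whose 8995 library was the highest (edgeR log2FC 1.67, SE 0.26, adjusted p = 0.00661), and the call was lost without KO22 of 8995 (adjusted p = 0.4396), and was also lost averaged over lines and without KO22. For nuclear long non-coding RNAs edgeR called 2 higher and 2 lower of 25 tested, median 0.34 (WT 0.32, KO22 −0.13, KO26 0.23, 1 library out 0.22 to 0.42, total counts 0.17 with 1 and 4). *Snhg14*, a host of small nucleolar RNAs, was at 21.7 CPM against 34.1, 38.98 and 32.01 in WT, at 18.1 against 33.5 and 30.8 in KO22, and at 18.1 against 29.6 in KO26, lower in each line (edgeR log2FC −0.74, SE 0.12, adjusted p = 0.00841).

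The called genes also differed in kind. Genes called higher were protein-coding in 88.5% and long non-coding in 3.48%, genes called lower in 65.8% and 19.1%, and all tested genes in 66.0% and 16.4%. Their median mean CPM was 42.7 for higher, 14.4 for lower and 7.41 for all. Median transcript length was 2888, 2755 and 2531 bases and median GC content 49.3%, 47.0% and 49.0% in the same order, and the part of these features in the calls was not tested. Of the 120 named genes that were called, 61 stayed called in each of the 9 fits that left out 1 library and in the 8 other alternatives, among them *Ifi208*, *Mndal*, *Gbp11*, *Ddx60*, *Oas2*, *Tagln*, *Myl9*, *Acta2*, *Atf5*, *Serp1*, *Fosl2* and *C4b*.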

How the data were processed

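The values were gene counts. Before deposit, per the labels and the study's methods, the authors trimmed reads with Trim Galore 0.6.7, aligned them to mm39 with STAR and made the deposited counts per gene with its gene counting. The methods, which speak of dissected RPE, give STAR 2.7.9a, and the labels give no version. The submitters' notes also list DESeq2 1.42.0. The strand of counting is not given in the sources used here.

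From these counts, 20737 of 20910 genes were tested, those that reached 5 counts in 3 or more of the 9 libraries. edgeR 4.0.16 (R 4.3.3, limma 3.58.1) fitted quasi-likelihood models with TMM factors, cell line and batch, leaving 5 residual degrees of freedom and a common coefficient of variation of 0.203. A model with 6 groups (3 residual degrees of freedom, common coefficient of variation 0.0854) gave interactions and within-line values. P-values were adjusted by Benjamini-Hochberg over all tested genes and called under 0.05. DESeq2 1.42.0 was an alternative test. Python 3.11.15, pandas 2.3.3, numpy 2.4.6 and matplotlib 3.10.9 made tables and figures, and GENCODE M39 gave gene features. The scripts were tested on simulated data.

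Members and the 42 lists were chosen with earlier results of these data known. Named were the 10 smallest adjusted p and the 5 largest log2FC per direction, among called genes with 1 direction in 3 lines and a mean of at least 10 CPM, the 5 smallest interaction p at that mean, and, with neither limit, in each list the 3 smallest adjusted p and the most abundant gene. This gave 178 genes, and 12 were added after values were seen. Not all are printed, and the rest are given by the counts of their list. Results of some genes are not reported here.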

Additional observations from a re-analysis of the deposited data

Results flagged for a closer look

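The batch difference itself differed between lines by the test of the interaction for 6824 genes in edgeR. Among genes with a mean of at least 10 CPM this difference was the clearest for 5: adjusted p = 4.52e-15 for *Lcn2*, 2.61e-12 for *Nos2*, 2.67e-12 for *Cxcl5*, 1.66e-11 for *Gm56730* and 4.57e-11 for *Ero1a* (edgeR). In each of them KO22 moved up in batch 8995 and WT and KO26 moved down.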

How the results depend on the processing

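Counts of calls, named genes and list medians were repeated in 9 fits without 1 library and in 8 other alternatives, the count with 1 direction in 6 of the latter, and the interaction in 5 of each. Counts of higher and lower calls were 3868 and 4019 averaged over lines in the 6-group fit, 530 and 2005 with total counts only, 459 and 497 without KO26, 3847 and 2707 without KO22, 1481 and 1561 with the DESeq2 test, and 137 and 397 past a log2FC of 1.2. Without 1 library they ranged from 191 to 3791 higher and from 339 to 3125 lower. Genes called with 1 direction in all lines numbered 4997 averaged over lines and 2776 with the DESeq2 test, which passed 3804 interactions. DESeq2 size factors, no count filter and filterByExpr kept the counts within 1.5 times.

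Of the log2FC of named genes, 1406 kept their side of the threshold, 51 gained a call, 245 lost it and 2 reversed without 1 library, and 1351, 101, 52 and 3 did so in the other alternatives. Sign changes of genes uncalled in both fits, 102 with those within lines, are counted as kept. Within KO22 the sign was reversed for *Cyp51* (−0.0298), *mt-Co3* (−5.81), *C3* (0.66), *H1f4* (−1.46), *Cxcl12* (0.54), *Kdr* (−3.20), *Ccnd1* (−1.09), *Fn1* (0.84), *Cxcl5* (1.22), *Lcn2* (1.52) and *Nos2* (2.21). Within KO26 it was reversed for *Hlf* (−0.16), *mt-Co3* (−0.29), *Grem1* (−0.93) and *Tnnt3* (−0.91), and within WT for *Pola1* (0.34). *Kdr* gave −0.75 averaged over lines. *Ero1a* gave −0.46 in WT, −1.97 in KO26 and −0.997 without KO22, and −1.03 to 1.40 without 1 library, and *Gm56730* gave −0.78, −2.49, −1.39, and −1.43 to 1.33. For all of these, the cause was not tested.

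No paired analysis was possible because batch 8995 holds 1 library of each line and the labels link none to a library of batch 9262. The groups of 1 library were assumed to vary like the others. The deepest library held 27537863 counts and the shallowest 8076188, which limits what can be called among genes of low counts.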
